A study of Mus musculus with 2 samples.

Results

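The genes described here are 10 enzymes of the methionine cycle and of the one-carbon metabolism attached to it, measured by spatial transcriptomics (ST) in mouse liver. They were taken by symbol from the gene tables of both sections, where Gnmt, Bhmt, Mat1a, Ahcy, Cbs, Pemt, Shmt1, Shmt2, Sardh and Dmgdh each matched 1 of 32285 gene identifiers. Both animals were male C57BL/6J mice that arrived at 5 weeks of age and were acclimated for 1 week. The NCD mouse was a control, and the HFD mouse received a 60% high-fat diet to induce fatty liver. After 14 weeks on the diets came an 8-week intervention period, in which both groups were given distilled water orally once daily instead of a drug. Mice had free access to food and water, and whether the high-fat diet went on through this period is not stated explicitly. A single mouse was drawn from each group, and a 10 µm section of its fresh-frozen liver was laid on a Visium slide, whose barcoded spots capture RNA that is counted by unique molecular identifiers (UMIs). Since each diet had 1 section, the effects of diet, animal, section and, if it differed, slide cannot be told apart. Sections were therefore not tested against each other, and the 95% intervals in parentheses cover counting error only.

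In the methionine cycle, Mat1a makes S-adenosylmethionine, the methyl donor of the cell, from methionine in hepatocytes. Methyltransferases such as Gnmt and Pemt use this donor, Ahcy splits the S-adenosylhomocysteine that is left, and the homocysteine formed is either methylated again by Bhmt or passed to cysteine synthesis by Cbs. Shmt1, Shmt2, Sardh and Dmgdh carry one-carbon units between serine, glycine, sarcosine, dimethylglycine and folate. The liver is the main site of this cycle, and its enzymes are known to be distributed unevenly along the lobule, from the portal triad (periportal) to the central vein (pericentral).

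The NCD section held 3692 spots over tissue with 29037988 UMIs, and the HFD section held 3594 spots with 72118803 UMIs. A spot of the NCD section held 4187.5 UMIs at the median, and one of the HFD section 18549. Fewer than 1000 UMIs were held by 840 spots (22.8%) of the NCD section and 4 spots (0.111%) of the HFD section. The sample records name an immune cell type and a hematopoietic stem cell line for these liver sections, but 8 hepatocyte markers made up 119793 UMIs per 1000000 (CPM) in the NCD section and 137523 CPM in the HFD section, whereas 4 macrophage markers made up 75.5 and 99.3 CPM. Each spot covers several cells, so that fewer hepatocytes and less RNA per hepatocyte cannot be told apart in any value below. Between the sections, 3173 spot barcodes were shared, since the spot grids under both sections carry the same printed layout. Whether both sections lay on the same slide is not stated.

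Gnmt and Ahcy were the members that differed most between the sections. Gnmt, glycine N-methyltransferase, which disposes of excess S-adenosylmethionine by methylating glycine to sarcosine, had 3890 CPM in the NCD section and 1369 CPM in the HFD section. The level in the HFD section was 2.84-fold lower, a log2 ratio of -1.51 (95% interval -1.52 to -1.49). Ahcy, S-adenosylhomocysteine hydrolase, had 607 CPM in the NCD section and 223 CPM in the HFD section, which was 2.73-fold lower with a log2 ratio of -1.45 (-1.48 to -1.42). Of 8560 genes counted at least 500 times in the sections together, 0.759% had a lower ratio than Gnmt and 0.864% a lower ratio than Ahcy.

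Because these members stood apart together, their promoters are shown, from RefSeq on GRCm38.p6, as 250 bases before and 50 bases after the annotated start, 5′ to 3′ on the strand of the gene. The Gnmt promoter lies at chr17:46729116-46729415 and the Ahcy promoter at chr2:155074448-155074747, both on the minus strand. Capitals mark the TATA-like motif TATAA, the motif CCAAT and the nuclear receptor motif AGGTCA, each searched on both strands.
Gnmt: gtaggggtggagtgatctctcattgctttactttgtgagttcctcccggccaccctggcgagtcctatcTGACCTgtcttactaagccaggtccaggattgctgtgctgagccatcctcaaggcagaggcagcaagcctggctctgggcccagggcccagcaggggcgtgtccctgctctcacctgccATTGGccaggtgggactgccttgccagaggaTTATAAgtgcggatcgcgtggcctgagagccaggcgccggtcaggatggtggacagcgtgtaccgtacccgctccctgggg
Ahcy: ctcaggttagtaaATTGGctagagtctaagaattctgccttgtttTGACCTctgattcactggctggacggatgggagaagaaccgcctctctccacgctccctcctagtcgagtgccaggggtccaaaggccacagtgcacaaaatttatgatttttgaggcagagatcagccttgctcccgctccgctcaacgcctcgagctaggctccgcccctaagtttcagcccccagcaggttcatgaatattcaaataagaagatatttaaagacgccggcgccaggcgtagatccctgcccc
Both sequences held 1 reversed CCAAT and 1 reversed AGGTCA. In Gnmt, TATAA was present on both strands in an overlapping match that began 31 bases before the start, whereas Ahcy held none. Among 32851 promoter windows of the same length, 24.9% held the first motif, 37.4% the second and 16.3% the third, so that such matches are common and describe the letters only. Promoter windows were available for 9 of the 10 members, and AGGTCA was also present in those of Bhmt and Sardh. CCAAT was also present in windows of Bhmt, Cbs, Pemt and Shmt1, and TATAA in a window of Pemt.

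**Figure D1:**
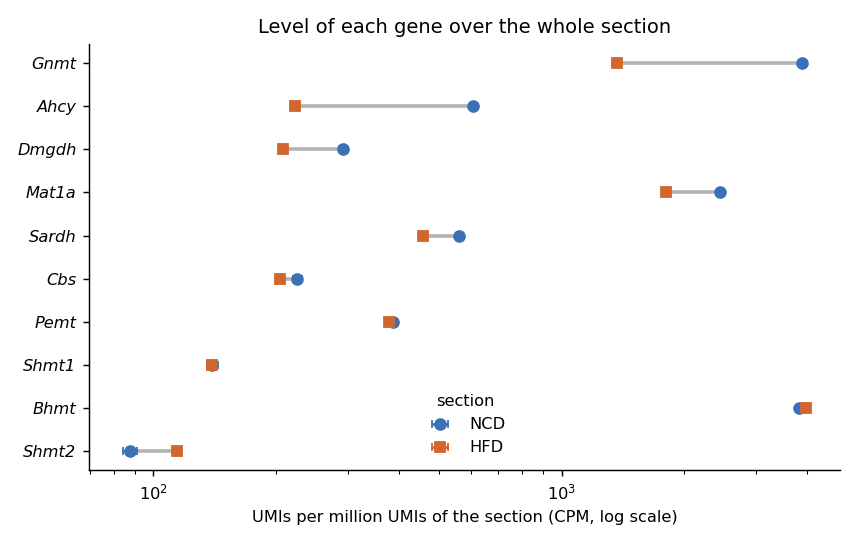
Level of each of the 10 genes in the NCD section (circles) and the HFD section (squares), in CPM on a log axis, with 95% counting intervals that are mostly narrower than the symbols. The long bars belong to Gnmt (3890 against 1369 CPM) and Ahcy (607 against 223 CPM), while Pemt, Shmt1 and Bhmt nearly coincide.

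The other members of the methyl-donor branch differed less. Mat1a, the hepatocyte methionine adenosyltransferase, had 2447 CPM in the NCD section and 1807 CPM in the HFD section (log2 ratio -0.44, -0.45 to -0.42). Pemt, which makes phosphatidylcholine by methylating phosphatidylethanolamine, had 387 and 378 CPM (log2 ratio -0.03, -0.07 to -0.0027). Thus the donor-making enzyme was lower in the HFD section, and the phospholipid methyltransferase differed by little more than its counting interval.

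At the homocysteine branch point, neither enzyme was far apart between the sections. Bhmt, which methylates homocysteine with betaine, had 3810 CPM in the NCD section and 3964 CPM in the HFD section (log2 ratio 0.06, 0.05 to 0.07). Cbs, cystathionine beta-synthase, which commits homocysteine to cysteine synthesis, had 225 and 204 CPM (log2 ratio -0.15, -0.19 to -0.10). The small difference of Bhmt turned to -0.29 when levels were taken relative to 6 hepatocyte markers, so that its direction depended on the scale.

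Among the enzymes of one-carbon units, the members did not share a direction. Dmgdh and Sardh are mitochondrial dehydrogenases of dimethylglycine and of sarcosine, the product of Gnmt. Dmgdh had 292 CPM in the NCD section and 207 CPM in the HFD section (log2 ratio -0.49, -0.53 to -0.45). Sardh had 561 and 458 CPM (log2 ratio -0.29, -0.32 to -0.26). Shmt1, the cytosolic serine hydroxymethyltransferase, had 139 CPM in both sections, and its interval held no difference (-0.06 to 0.05). Shmt2, the mitochondrial form, had 87.8 CPM in the NCD section and 115 CPM in the HFD section (log2 ratio 0.38, 0.32 to 0.45), the highest of the 10.

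A gene was counted as higher or lower when its CPM differed by at least 1.5 times, among genes with at least 500 UMIs over the groups compared, a minimum that all 10 members passed in every comparison made here. By this rule 2 of the 10 members, Gnmt and Ahcy, were lower in the HFD section, beside 4.10% of all 8560 genes. None of the 10 was higher, beside 21.2% of all genes. The median log2 ratio of the members was -0.22, and that of all genes was 0.21. Relative to the 6 hepatocyte markers every log2 ratio shifted by -0.35, and the median of all genes became -0.13. On this scale 5 members were lower (Gnmt -1.85, Ahcy -1.79, Dmgdh -0.84, Mat1a -0.78 and Sardh -0.64), beside 13.4% of all genes. These 6 markers are another list than the hepatocyte markers summed above, and held 56688 CPM in the NCD section and 72067 CPM in the HFD section. Another reference list would shift the ratios by another amount, so the count of 5 belongs to this reference.

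Markers of other cells also differed between the sections. The summed CPM of 4 red blood cell markers was 6676 on the NCD side and 1246 on the HFD side, and that of 5 B cell markers was 29.7 and 9.33. The 4 stellate cell markers gave 45.3 and 133 CPM, the 5 bile duct markers 355 and 696, the 5 endothelial markers 55.3 and 84.3, the 3 T cell markers 8.16 and 5.77, and the 3 neutrophil markers 15.5 and 11.6. No marker of these lists was at 0 in either section, and their part in the differences of the members was not tested. Without the tenth of spots richest in red blood cell markers, and without spots that held a UMI of a B cell marker, Gnmt and Ahcy stayed lower in the HFD section, with log2 ratios of -1.51 and -1.52 for Gnmt and of -1.46 and -1.45 for Ahcy, settings chosen after seeing the data. Over all 10 alternatives the ratio lay between -1.85 and -1.49 for Gnmt and between -1.79 and -1.44 for Ahcy.

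Features of the RNA that could differ between 2 sections were set beside the members. Mitochondrially encoded genes took 8.51% of NCD and 5.64% of HFD UMIs, and 84 cytosolic ribosomal protein genes took 7.86% and 6.79%. The shortest and the longest transcripts both had slightly lower ratios as classes. The median log2 ratio was 0.16 in the tenth with the longest transcripts (6488 bases or more) and reached 0.30 in between. In the tenth of genes with the shortest transcripts (204 to 1193 bases), to which Gnmt belongs with 1035 bases, the median log2 ratio was 0.07, and 18 of 840 genes were lower than Gnmt. In the class of Ahcy, whose transcript has 2543 bases, the median was 0.25, and 5 of 839 genes were lower than Ahcy.

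The counts of Ahcy have a second limit, a retrogene. Gm4737, at chr16:46152985-46155077 on GRCm38 (GENCODE M21, protein-coding, tagged as a retrogene), aligned to the Ahcy transcript over 2086 bases with 99.7% identity, while the last 416 bases of the Ahcy transcript lay outside the alignment. The deposited counts gave Gm4737 184 CPM in the NCD section and 37.5 CPM in the HFD section (log2 ratio -2.30, -2.36 to -2.23). Its share of the UMIs of both genes was 23.3% in NCD and 14.4% in HFD tissue. How many of these UMIs came from Ahcy transcripts was not tested, and the split between the copies is uncertain. Summed, both genes had 791 and 260 CPM (log2 ratio -1.61, -1.63 to -1.58), an alternative chosen after seeing the data. Of the other pairs aligned, Bhmt and Bhmt2 shared 70.4% identity and Shmt1 and Shmt2 67.1%.

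To set spots against each other at the same depth, each was drawn down to 3000 UMIs, which left 2107 NCD spots and 3538 HFD spots. A spot of the NCD section then held at the lowest 1, at the median 12 and at the highest 27 UMIs of Gnmt. In the HFD section the lowest was 0, the median 4 and the highest 17. The ranges overlapped, but 13 of 3538 HFD spots (0.367%) reached the NCD median of 12, beside 53.7% of NCD spots. Bhmt showed no such shift, with a median of 11 UMIs in both sections.

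For Mat1a the median spot held 7 UMIs in NCD and 5 in HFD tissue. The NCD median was reached by 30.6% of HFD spots, beside 60.5% of NCD spots. Ahcy was sparse at this depth, with a median of 2 UMIs in NCD and 0 in HFD spots. Of the HFD spots 14.7% reached 2, beside 55.3% of NCD spots. The variance of Gnmt UMIs over spots, divided by their mean, was 1.24 for NCD and 1.20 for HFD spots, where pure counting gives a value near unity.

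**Figure D2:**
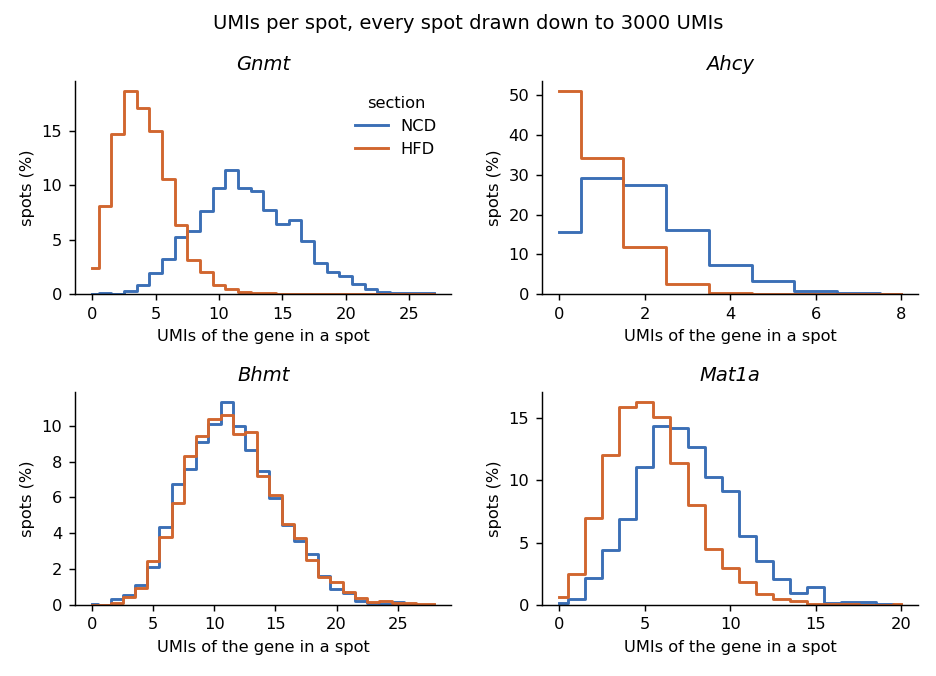
Share of spots (%) by the number of UMIs of Gnmt, Ahcy, Bhmt and Mat1a, with every spot drawn down to 3000 UMIs, in the NCD section (blue, 2107 spots) and the HFD section (orange, 3538 spots). The Gnmt curves centre on 12 and 4 UMIs, while the Bhmt curves lie on each other with a median of 11.

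The next question was where in the lobule these differences lay. The spots of each section were ranked by the share of 8 pericentral markers (Glul, Oat, Cyp2e1, Cyp1a2, Slc1a2, Rhbg, Gulo and Lect2) among the UMIs of these and of 8 periportal markers (Cyp2f2, Hal, Sds, Hsd17b13, Gls2, Aldh1b1, Ctsc and Pck1), and cut into 3 equal parts. None of the 10 members is among these markers. At least 10 marker UMIs were required, which 2890 NCD spots and 3590 HFD spots had. Genes outside the score followed the ranking. The pericentral genes Axin2, Tbx3, Lgr5, Slc13a3 and Cyp7a1 together were higher in pericentral than in periportal spots, with log2 ratios of 2.24 (NCD) and 2.09 (HFD). The periportal genes Ass1, Asl, Cps1, Arg1 and Uroc1 together had log2 ratios of -0.69 and -0.88.

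The lower level of Gnmt and Ahcy in the HFD section was present at all 3 positions. For Gnmt, periportal spots had 3880 CPM in the NCD section and 1533 CPM in the HFD section, midlobular spots had 3921 and 1293 CPM, and pericentral spots had 3822 and 1208 CPM. The log2 ratio was -1.34 in periportal, -1.60 in midlobular and -1.66 in pericentral spots, so that the gap widened toward the central vein. For Ahcy the levels in the same order were 590 and 217, 606 and 219, and 619 and 233 CPM, and the log2 ratios were -1.44, -1.46 and -1.41, nearly the same at each position. Gnmt and Ahcy were the only members lower in periportal spots (3.88% of all genes) and in midlobular spots (4.87%), and no member was higher there (20.7% and 20.5%). In pericentral spots Dmgdh joined them with 312 CPM in the NCD section, 204 CPM in the HFD section and a log2 ratio of -0.61 (-0.68 to -0.55), which made 3 of 10 members beside 4.94% of all genes, again with none higher (18.3%). The ratio of Dmgdh there fell short of 1.5 times at 3000 UMIs per spot (-0.57) and without mitochondrial and the 20 most abundant genes (-0.58).

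Along the lobule of the NCD section, on the scale of all UMIs, all members but Cbs were flat or leaned toward the central vein. Pemt had 330 CPM in periportal and 413 CPM in pericentral spots, a log2 ratio of 0.32 (0.25 to 0.40). Shmt2 had 78.8 and 97.4 CPM (0.31, 0.16 to 0.45), Sardh 503 and 615 CPM (0.29, 0.23 to 0.35), and Dmgdh 262 and 312 CPM (0.25, 0.17 to 0.33). Cbs leaned the other way, with 255 CPM in periportal and 210 CPM in pericentral spots (-0.28, -0.37 to -0.19). Gnmt, Bhmt and Mat1a differed by about 0.02 or less in log2 ratio between these positions, Ahcy by 0.07 (0.01 to 0.12) and Shmt1 by 0.10 (-0.02 to 0.22). These small values depended on the scale. Without mitochondrial and the 20 most abundant genes Gnmt was at -0.14, Bhmt at -0.13 and Mat1a at -0.15, and Ahcy and Shmt1 turned to -0.05 and -0.02. None of the 10 reached 1.5 times in either direction, beside 6.78% of 3052 genes that were higher and 2.0% that were lower in pericentral spots.

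In the HFD section the same members were ordered differently. Gnmt had 1533 CPM in periportal and 1208 CPM in pericentral spots, a log2 ratio of -0.34 (-0.36 to -0.32), and Bhmt had 4181 and 3696 CPM (-0.18, -0.19 to -0.17). Cbs had 235 and 169 CPM (-0.48, -0.53 to -0.42), the steepest of the 10 in this section. Pemt (0.22), Shmt2 (0.26) and Shmt1 (0.20, 132 against 151 CPM) remained higher in pericentral spots, whereas Sardh (-0.12, 476 against 437 CPM) and Dmgdh (-0.07, 215 against 204 CPM) were slightly lower there. Again no member reached 1.5 times, beside 3.97% of 6599 genes that were higher and 2.50% that were lower.

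**Figure D3:**
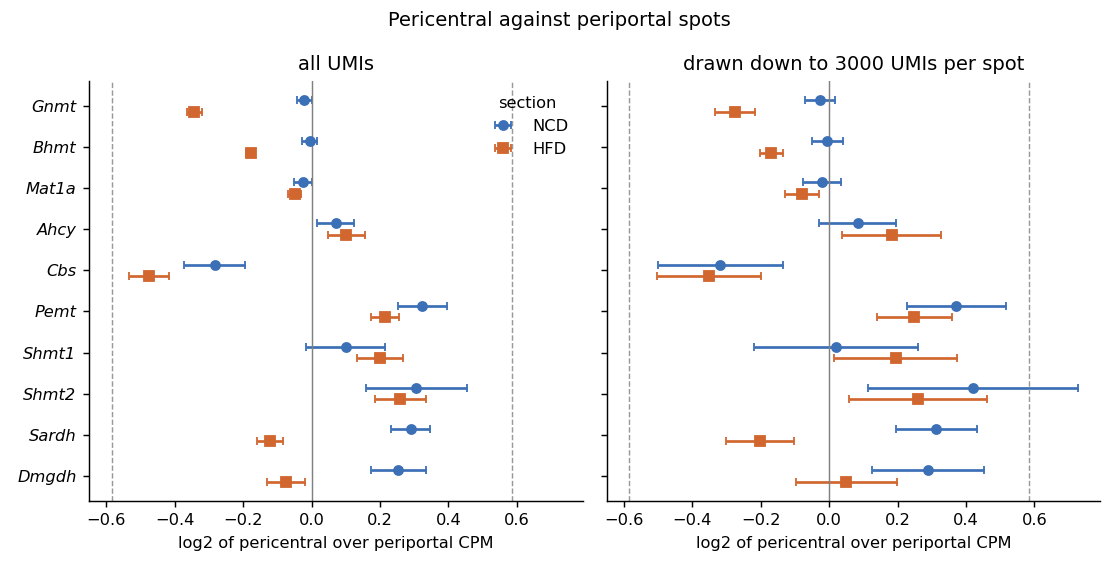
Log2 ratio of pericentral over periportal CPM for each of the 10 genes in the NCD section (circles) and the HFD section (squares) with 95% counting intervals, for all UMIs (left) and with every spot drawn down to 3000 UMIs (right). Dashed lines mark 1.5 times in either direction, and no point estimate lies beyond them. Sardh lies right of 0 in the NCD section and left of it in the HFD section in both panels, whereas Dmgdh in the HFD section crosses to 0.05 at equal depth.

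The difference between these slopes, HFD minus NCD, had an interval below 0 for 6 of the 10 members, beside 25.3% of 3042 genes, and above 0 for none, beside 16.5%. Such an interval narrows with the UMIs of a gene, so these shares also depend on its level. It was -0.41 for Sardh (-0.48 to -0.34), -0.33 for Dmgdh (-0.42 to -0.23), -0.32 for Gnmt (-0.35 to -0.29), -0.19 for Cbs (-0.30 to -0.09), -0.17 for Bhmt (-0.20 to -0.15) and -0.11 for Pemt (-0.19 to -0.03). Intervals for Mat1a, Ahcy, Shmt1 and Shmt2 held 0. None of the members differed by 1.5 times in slope, beside 1.31% of 3042 genes with a higher and 1.74% with a lower slope, and the median difference was -0.14 for the members and -0.04 for all genes.

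Depth and other markers also differed along the lobule. The median depth ran from 5161 UMIs in periportal to 7210 UMIs in pericentral spots of the NCD section and from 24641 to 16726.5 UMIs in the HFD section. With every spot at 3000 UMIs the difference in slope was -0.52 for Sardh (-0.67 to -0.36), -0.25 for Gnmt (-0.32 to -0.18), -0.24 for Dmgdh (-0.46 to -0.02) and -0.16 for Bhmt (-0.22 to -0.11). For Cbs (-0.03) and Pemt (-0.12) the interval then held 0. B cell markers summed to 9.73 CPM in periportal and 62.1 CPM in pericentral spots of the NCD section, and without spots that held such a UMI the difference for each of these 6 members kept its sign. The 8 hepatocyte markers had 140292 CPM in periportal and 104942 CPM in pericentral spots of the NCD section, and 149323 and 125906 CPM in those of the HFD section, and their part in the slopes was not tested.

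Profiles over 6 bins of the score gave the slopes in more detail. In the NCD section Sardh stood at 489 CPM in the most periportal bin and, higher at every step, at 631 CPM in the most pericentral bin. In the HFD section it stood at 482 CPM in the most periportal bin and, lower at every step, at 425 CPM in the most pericentral one. The sections therefore had nearly the same Sardh level at the portal end and were furthest apart at the central end.

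Dmgdh had the same form in the NCD section, from 253 CPM to 314 CPM with a higher value at every step, but lay between 200 and 218 CPM in all 6 bins of the HFD section. Gnmt in the HFD section went from 1594 CPM to 1176 CPM with a lower value at every step, and in the NCD section it stayed between 3775 and 4014 CPM.

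Cbs was highest in the most periportal bin of both sections, at 275 CPM in the NCD section and 244 CPM in the HFD section, and lowest in the most pericentral bin, at 209 and 164 CPM. Pemt ran the opposite way, from 308 to 422 CPM in the NCD section and from 336 to 414 CPM in the HFD section. Shmt2 in the HFD section was higher at every step, from 102 to 130 CPM. Bhmt crossed between the sections, since in the HFD section it was lower at every step, from 4213 to 3659 CPM, while in the NCD section it stayed between 3753 and 3886 CPM.

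**Figure D4:**
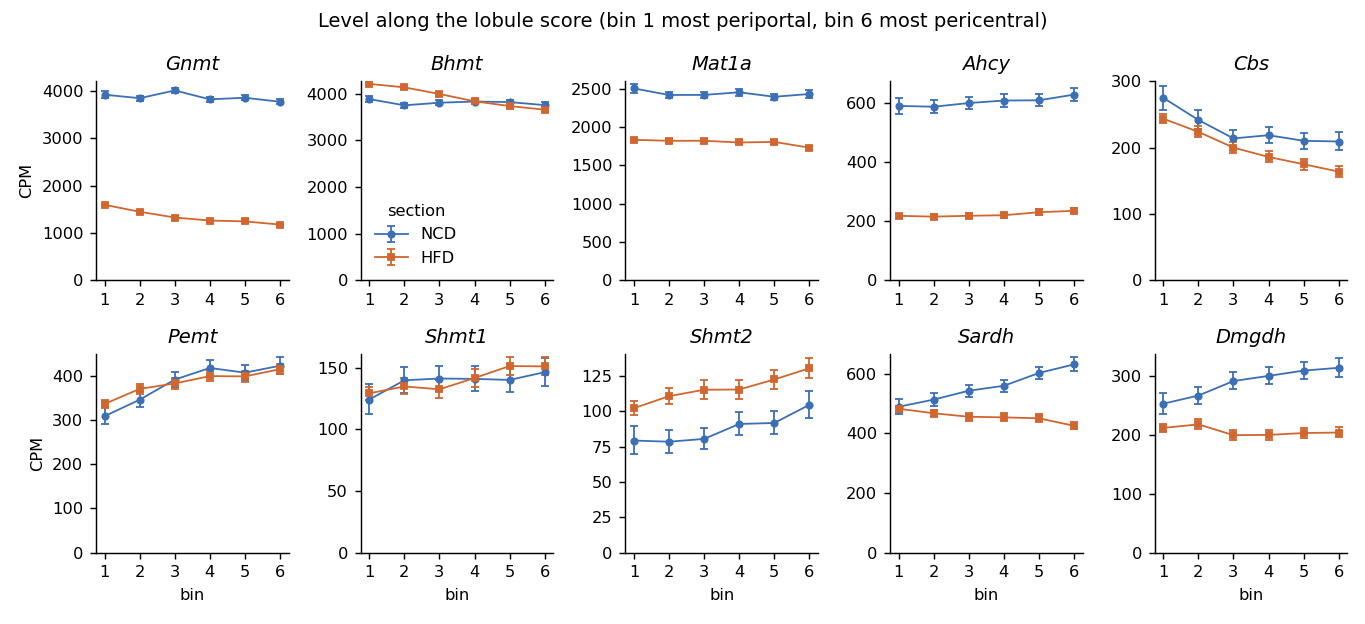
Level in CPM of each of the 10 genes in 6 equal bins of spots ranked by the lobule score, from the most periportal (bin 1) to the most pericentral (bin 6), in the NCD section (circles) and the HFD section (squares), with 95% counting intervals and axes from 0. Gnmt, Ahcy, Mat1a, Dmgdh, Cbs and Sardh lie lower and Shmt2 higher in the HFD section in every bin, Bhmt, Pemt and Shmt1 cross, and Sardh opens from 489 against 482 CPM in bin 1 to 631 against 425 CPM in bin 6.

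Within the HFD section, the spots of each lobule position were also ranked by the share of the lipid droplet genes Plin2, Plin4, Cidea and Cidec and cut into 4 parts, of which the highest (897 spots in all) was set against the lowest (899 spots). Gnmt had 1266 CPM in the lipid-rich and 1481 CPM in the lipid-poor spots, a log2 ratio of -0.23 (-0.25 to -0.20). The other members lay between -0.12 (Sardh) and 0.08 (Shmt1). None reached 1.5 times, beside 0.229% of 5247 genes that were higher and 0.191% that were lower. Taken separately, Gnmt stood at -0.22 in periportal, -0.23 in midlobular and -0.17 in pericentral spots. No member reached 1.5 times at any of the 3 positions, beside 0.705% higher and 0.0705% lower genes in periportal, 0.191% and 0.383% in midlobular, and 0.226% and 0.408% in pericentral spots. Over all positions Gnmt was at -0.06 with 3000 UMIs per spot, where Ahcy (-0.15), Sardh (-0.10) and Mat1a (-0.09) were lower than Gnmt, and at -0.38 when the ranking ignored the lobule. Other markers moved with the lipid ranking. In periportal spots the pericentral score markers had 2842 CPM in lipid-rich and 1888 CPM in lipid-poor spots (0.59), so that lobule position was not fully matched. Over all positions the macrophage markers had 113 and 86.1 CPM (0.39), the red blood cell markers 1088 and 1619 CPM (-0.57) and the hepatocyte markers 131892 and 143640 CPM (-0.12), and their part in the Gnmt value was not tested.

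The rest of the pathway was described through 9 lists with 65 genes, of which 55 passed the minimum of 500 UMIs. In the HFD section 10 of these 55 were at least 1.5 times higher and 3 at least 1.5 times lower, beside the 21.2% and 4.10% of all genes given above, and their median log2 ratio of 0.20 was close to that of all genes. In the methionine cycle outside the members, Mat2a, the methionine adenosyltransferase subunit that is expressed in most tissues, had 29.2 CPM in the NCD section and 64.3 CPM in the HFD section (1.14, 1.03 to 1.25). Mat1a and Mat2a therefore lay on opposite sides of 0. Ahcyl2, a relative of Ahcy, was also higher (0.62), while Mat2b, the regulatory subunit of Mat2a (-0.23), and Adk, adenosine kinase (-0.21), were slightly lower.

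In the transsulfuration and cysteine list 1 of 8 genes was lower and 1 higher, beside 4.10% and 21.2% of all genes. Cth, cystathionine gamma-lyase, which acts directly after Cbs, had 688 CPM in the NCD section and 379 CPM in the HFD section (-0.86, -0.89 to -0.84). Gclc, the catalytic subunit of the enzyme that starts glutathione synthesis, had 103 and 175 CPM (0.76, 0.71 to 0.82). Between them lay Cdo1, cysteine dioxygenase (-0.15), and Ethe1, a mitochondrial persulfide dioxygenase (0.24).

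Of 12 folate genes, 2 were higher and 1 lower, beside 21.2% and 4.10% of all genes. Aldh1l1, cytosolic 10-formyltetrahydrofolate dehydrogenase, had 778 CPM in the NCD section and 495 CPM in the HFD section (-0.65, -0.68 to -0.63). Slc25a32, the mitochondrial folate carrier (0.87, 8.85 against 16.1 CPM), and Mthfd2l, a mitochondrial folate dehydrogenase (0.84, 6.23 against 11.1 CPM), were higher at low levels, and Mthfd1, its cytosolic relative, differed little (-0.09).

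Methyltransferases of small molecules did not follow Gnmt as a group, with 3 of 7 higher and 1 lower, beside 21.2% and 4.10% of all genes. Their median log2 ratio of 0.24 was close to the 0.21 of all genes. Inmt, indolethylamine N-methyltransferase, had 449 CPM in the NCD section and 206 CPM in the HFD section (-1.13, -1.16 to -1.09). Among those higher in the HFD section were Hnmt, histamine N-methyltransferase (1.11, 18.0 against 38.9 CPM), and Gamt, which makes creatine and was named after its value was seen (0.82, 206 against 363 CPM). Nnmt, nicotinamide N-methyltransferase, lay at -0.17.

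The remaining lists held few genes past 1.5 times, beside 21.2% of all genes that were higher and 4.10% that were lower. Chka, choline kinase alpha, at the head of phosphatidylcholine synthesis from choline, had 11.8 CPM in the NCD section and 26.4 CPM in the HFD section (1.16, 0.99 to 1.33), the only one of 8 genes of that list, in which Chkb (0.46), Chpt1 (0.02) and Cept1 (-0.12) were nearer to 0. Srm, spermidine synthase (0.86), was the only one of 6 polyamine and salvage genes, beside Odc1 (0.42), Apip (0.19) and Mri1 (-0.21). None of the 4 glycine cleavage genes passed 1.5 times (Gldc 0.34, Amt 0.27, Dld 0.23 and Gcsh 0.14), none of the 3 genes of choline and sarcosine oxidation (Chdh 0.31, Pipox 0.19 and Aldh7a1 -0.03), and not the single tested gene of serine synthesis (Psph 0.52).

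**Figure D5:**
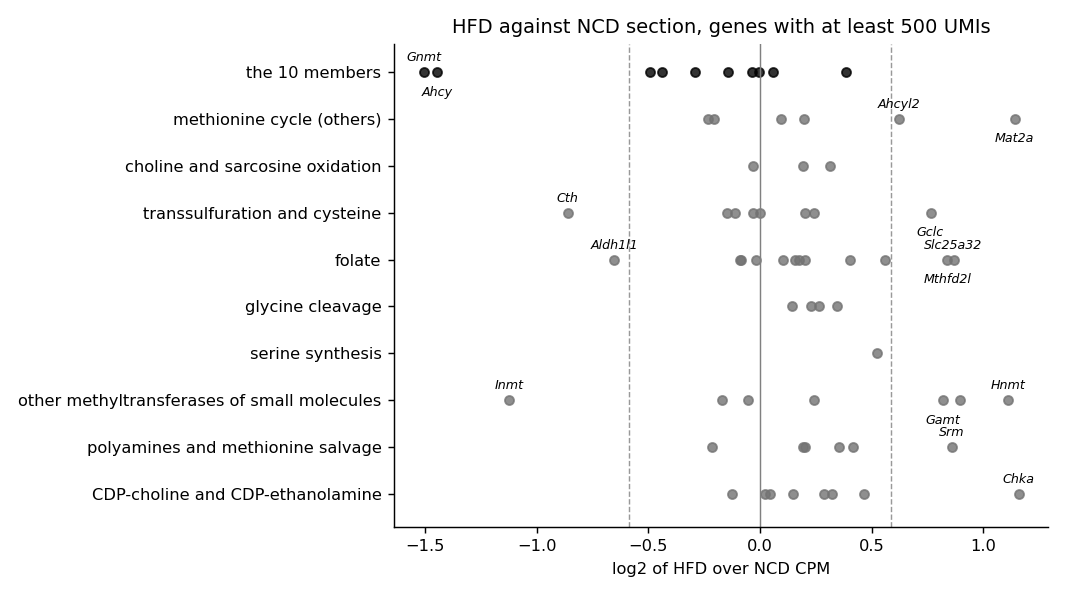
Log2 ratio of HFD over NCD CPM for the 10 members (black) and for 55 further genes on 9 pathway lists (grey), each dot a gene that passed the minimum of 500 UMIs. Dashed lines mark 1.5 times, beyond which lie Gnmt and Ahcy among the members and 3 lower and 10 higher genes on the lists, and names mark those described in the text.

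A few pathway genes outside the members passed 1.5 times along the lobule. In pericentral against periportal spots of the NCD section, 4 of 40 tested genes were higher (among them Csad 1.28, Chpt1 0.72 and Etnk2 0.61) and 2 lower (Gldc -1.68 and Ftcd -1.23), beside the 6.78% and 2.0% of all genes given above. In the HFD section 3 of 51 were higher (among them Csad 0.98 and Chpt1 0.73) and 3 lower (Gldc -1.30, Ftcd -0.83 and Cth -0.81), beside 3.97% and 2.50%. Of these, Csad, which makes hypotaurine, Etnk2, an ethanolamine kinase, and Ftcd, a histidine-folate enzyme, were named after their values were seen. Cth, next to Cbs in the pathway, shared the periportal lean of Cbs in both sections, with -0.26 in the NCD section.

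Genes with a profile like that of the members were looked for among 4171 genes that held 500 or more UMIs in each of the sections, as the Pearson correlation of log2 CPM over 12 bins, 6 from each section. The bins of a section share its library, and the correlation does not depend on the size of a difference. For a gene far apart between the sections, r mostly reflects that gap and says little about the lobule. Gnmt, for example, had 3775 to 4014 CPM in the NCD bins and 1176 to 1594 CPM in the HFD bins. The mean profile of the members was most like those of Fetub (r = 0.996), Mug1 (0.993), 1300017J02Rik (0.993), Ugt2a3 (0.991) and Eif4ebp3 (0.990). Gnmt was most like Serpina3k and Sec61g (both 0.998), and Mat1a like Osgin1 and Sec61g (both 0.995). Among the nearest to Ahcy was its retrogene Gm4737 (0.998), although the split of UMIs between these copies is uncertain. Among the nearest to Sardh was Ces3a (0.970). Cbs was most like Nnmt (0.982) and C8a (0.946), Pemt like Csad (0.993) and Abcc2 (0.976), and Dmgdh like Mug1 (0.992) and Slc27a5 (0.991). For Shmt2 the nearest were Grina (0.990) and Vnn1 (0.989), for Bhmt Pla1a (0.923) and Tedc2 (0.921), and for Shmt1 Tmem135 (0.919) and Ces1f (0.914).

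In the genome, Bhmt (chr13:93616675-93637961) and Dmgdh (chr13:93674433-93752833) are neighbours, with Bhmt2 between them, whose start lies 130 bases from that of Dmgdh on the opposite strand. Despite this, Bhmt (0.06) and Bhmt2 (0.20) did not share the lower level of Dmgdh (-0.49) in the HFD section. Gnmt (chr17:46725664-46729168) and Cbs lie far apart on the same chromosome, as do Ahcy (chr2:155059310-155074497) and Sardh (chr2:27188393-27248337). Coordinates were taken from GENCODE M21 (GRCm38).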

How the data were processed

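UMI counts per gene and spot were used as deposited by the authors, who counted them with Space Ranger 1.3.1 and, per the submitters' processing notes, the mm10 build, without normalization, for the spots called over tissue and for the whole capture area. The annotation they used is not given in the sources used here. Gene positions and transcript lengths are those of GENCODE M21 on GRCm38, in which all 10 members and 32158 of 32285 identifiers were found, and promoters are from RefSeq.

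A level is the pooled UMI count of a gene in the spots compared, per 1000000 UMIs in them (CPM). Levels carry exact Poisson intervals, ratios exact conditional binomial intervals, and differences of log2 ratios normal intervals, all at 95%. Spots are not replicates, and no p-value was computed. Spots were drawn down with seed 1. The tools were biotite 1.4.0 for local alignment, scipy 1.17.1 for intervals, pandas 2.3.3 and numpy 2.4.6 on Python 3.11.15, and matplotlib 3.10.9, and the interval code was tested on simulated data.

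Named pathway genes are, per list, up to 2 with the highest and up to 2 with the lowest log2 ratio between the sections. Genes alike in profile are the 5 nearest the members' mean and the 2 nearest each member. Some genes that these rules select are not reported here. The members and all lists were chosen with earlier results of these data known. Spot positions, images and scRNA-seq were not used here.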

Additional observations from a re-analysis of the deposited data

Results flagged for a closer look

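Sardh and Dmgdh leaned in opposite directions along the lobule of the 2 sections. The log2 ratio of pericentral over periportal CPM was 0.29 for Sardh and 0.25 for Dmgdh in the NCD section, and -0.12 and -0.074 in the HFD section. The counting intervals of all 4 values excluded 0, but with 1 section per diet the difference was not tested between animals. At 3000 UMIs per spot Sardh kept both directions, whereas Dmgdh in the HFD section was at 0.05 (-0.10 to 0.20).

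UMIs of the members were also present in spots outside the tissue, which entered only the alternative over the whole capture area. In the NCD capture area the 10 genes summed to 12946 CPM off tissue, against 12447 CPM over tissue. In the HFD capture area they summed to 6456 CPM off tissue, against 8864 CPM over tissue. Off-tissue spots held 19.1% of all UMIs of the NCD area and 2.93% of those of the HFD area. The median off-tissue spot held 3383 UMIs in the NCD area, against 4187.5 over tissue. In the HFD area it held 1175.5 UMIs, against 18549 over tissue. How this bears on the ratios between the sections and on the lobule profiles was not tested. Gnmt off tissue had 3902 CPM in the NCD area and 1053 CPM in the HFD area, and Ahcy had 689 and 186 CPM.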

How the results depend on the processing

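No paired analysis was possible because each diet has 1 section, which leaves no second pair. The median log2 ratio of the members, HFD against NCD, was -0.22 and moved to -0.27 for every capture-area spot of 1000 or more UMIs, tissue or not, to -0.27 at 3000 UMIs per spot, to -0.34 at 300 UMIs per spot, to -0.35 as a mean of CPM per spot, and to -0.56 relative to hepatocyte markers, where the number of lower members went from 2 to 5. Without mitochondrial and the 20 most abundant genes the median of pericentral over periportal ratios became -0.037 in the NCD section (0.08 otherwise) and -0.11 in the HFD section (-0.06 otherwise), and the median difference became -0.067 (-0.14 otherwise). At 3000 UMIs per spot the HFD median was -0.015. With no minimum of UMIs 16 of the 65 pathway genes were higher in the HFD section (10 of 55 otherwise). In pericentral spots 5 genes of these lists were then lower in each section (otherwise 2 of 40 for NCD and 3 of 51 for HFD tissue). Genes added this way held fewer than 500 UMIs over the groups compared. No share of all genes without a minimum is given here, so whether 16 or 5 is many cannot be judged. No cause of these or the preceding changes was tested. Between the sections Mat1a, Cbs, Pemt, Sardh, Dmgdh and Shmt2 kept their direction in 10 of 10 alternatives, as did Gnmt and Ahcy, Bhmt in 8 and Shmt1 in 6. A kept direction can still lie near 0. Pemt came to -0.0023 at 3000 UMIs per spot, and Shmt2 came to 0.04 relative to hepatocyte markers. Leaving out spots with B cell marker UMIs or the tenth richest in red blood cell markers was chosen after seeing the data. Depth limits Cbs, Pemt, Shmt1, Shmt2 and Dmgdh most, of which the median spot held at most 1 UMI at 3000 UMIs per spot.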
